A study of Mus musculus with 4 samples.

Results

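The response of the wild-type mouse amygdala to lipopolysaccharide (LPS) was measured on 8 of the 16 arrays of the series: the 4 arrays labelled wild-type LPS and the 4 labelled wild-type saline, chosen by these labels alone. All mice behind these arrays were male C57BL/6J wild-type animals aged 10 weeks. The whole amygdala was taken 6 h after saline or LPS was injected intraperitoneally, and the LPS dose stands in the labels both as 7.5 µg per mouse and as 250 µg/kg. The labels give 4 mice per group and do not tie a single array to a single mouse, so p-values measure the spread between arrays, which may be technical. The other 8 arrays come from mice that lack P2rx7 (the ATP-gated P2X7 receptor) and lie on other slides. They enter here only where a level in wild type is set beside them.

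LPS is a cell wall component of Gram-negative bacteria that is bound by Cd14 and sensed by Toll-like receptor 4, on immune cells and on the lining of blood vessels. One arm of its signalling acts through NF-kB and switches on cytokines and acute-phase genes. The other acts through interferon and switches on antiviral genes and the guanylate-binding GTPases. In brain, an injection in the periphery reaches blood vessels, microglia and astrocytes mostly through circulating mediators, and glucocorticoids released by the stress axis act on the tissue at the same time.

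Levels are on the log2 scale, as the processed spot intensity relative to its array's 75th percentile, and changes are differences of these levels, LPS minus saline, ± the standard error of the limma fit. A gene is called where the adjusted p (Benjamini-Hochberg over all 18691 genes tested) is under 0.05. Each slide held 2 saline and 2 LPS arrays: slide 1 held saline 1, saline 2, LPS 1 and LPS 3, and slide 2 held saline 3, saline 4, LPS 2 and LPS 4. The 75th percentile of intensity lay between 581.3 and 1164.7 on the 8 arrays, and 62.5% to 71.9% of probes were well above background. The median spread of replicate spike-in control spots was a coefficient of variation of 20.2% to 28.9% on the slide 1 arrays and of 5.2% to 9.7% on the slide 2 arrays. Whether this difference bears on the results was not tested.

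The 4 saline arrays did not form 1 group. On the first principal component, which held 40.3% of the variance, saline 1 and saline 2 scored −28.2 and −28.5, and saline 3 and saline 4 scored 66.1 and 56.8. The LPS arrays scored −10.5, −14.7, −54.2 and 13.2 for replicates 1 to 4. On this component saline 1 and saline 2 fell among the LPS arrays, and saline 3 and saline 4 lay beyond all the others. On the second component, which held 18% of the variance, saline 1 and saline 2 scored 39.9 and 30.1, outside the range of the LPS arrays (−55 to 3.1). By the median absolute difference in log2 level over 24035 probes, LPS 4 was nearer to saline 4 (0.266) than to LPS 1 or LPS 3 (0.344 for both). A comparison of saline on slide 1 with saline on slide 2, added after this was seen, called 835 of 18691 genes (4.47%), 394 of them higher and 441 lower on slide 1. The same comparison of the LPS arrays called 0 genes with limma (smallest adjusted p = 0.104), with 2364 genes at an unadjusted p under 0.05. For many inflammatory genes described below, levels on saline 1 and saline 2 lay in or near the range of the LPS arrays. The comparison is therefore given over 8 arrays, on each slide, and, for the gene lists, without these 2 arrays. Of 59 genes chosen for naming that were called on slide 2, 55 were also called, in the same direction, without these 2 arrays, and Prl, Dsp, Myo1f and Defb11 were not. Both comparisons use saline 3, saline 4, LPS 2 and LPS 4, and many of the 59 were chosen for their slide 2 change. The comparison without these 2 arrays is thus not an independent check of slide 2, here or for the lists below. The cause of the difference between the saline pairs was not tested.

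Cxcl10, a chemokine that draws T cells and is induced by interferon, showed the pattern on single arrays (chromosome 5, 92775781 to 92775840, mm9). Its level was 2.54 and 3.10 on saline 1 and saline 2, −4.78 and −5.09 on saline 3 and saline 4, and 0.94, 3.69, 3.48 and 0.89 on LPS 1 to LPS 4. The first pair of saline arrays lay inside the range of the LPS arrays, and the second pair lay far below it. On the 8 knockout arrays, which lie on other slides, the level was −6.63 to −4.99 after saline and 4.03 to 4.46 after LPS. Saline 3 and saline 4 thus lay in or near the range of the knockout saline arrays, and saline 1 and saline 2 did not.

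**Figure D1:**
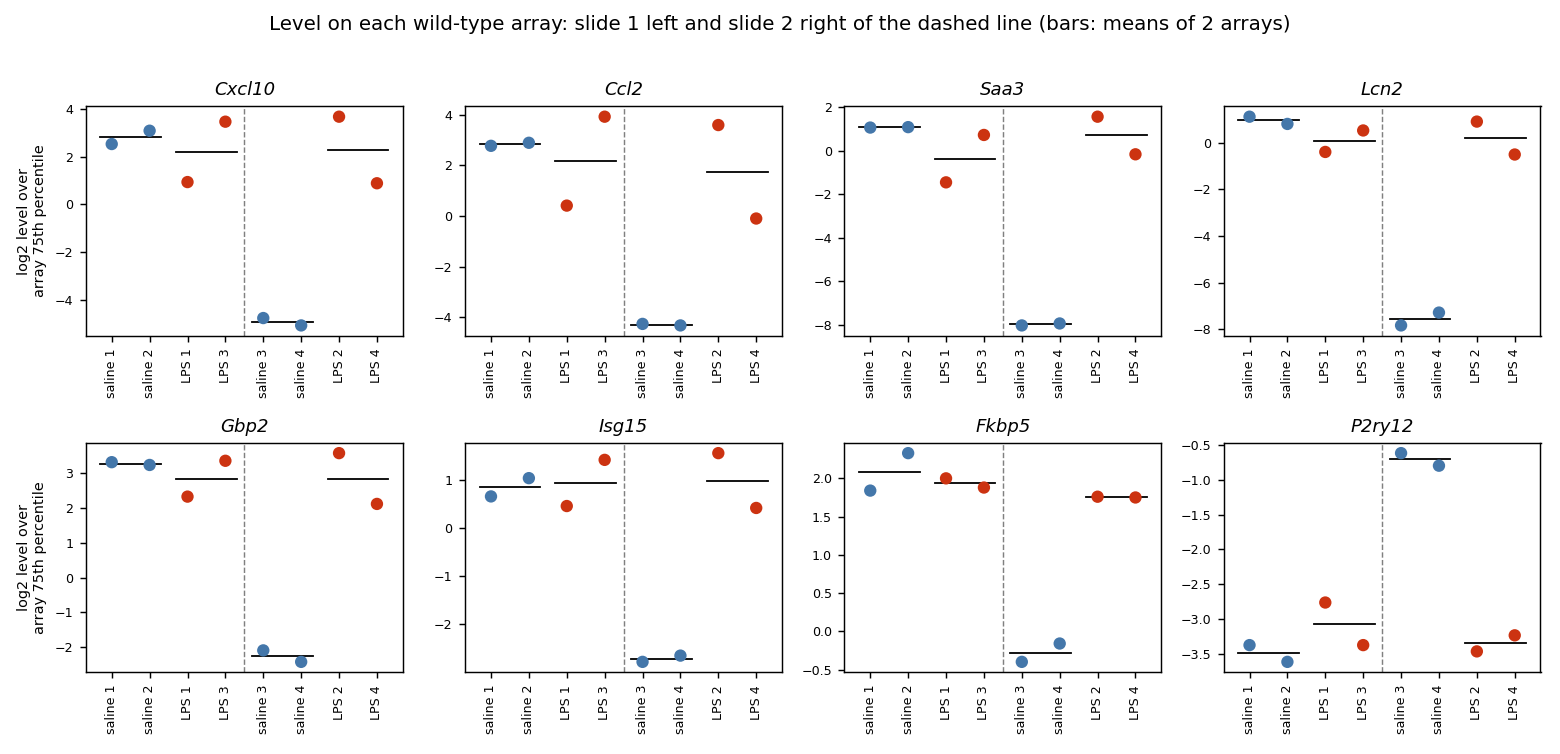
Level of 8 genes on each wild-type array (y axis, log2 over the 75th percentile of the array), with saline in blue, LPS in red, slide 1 left and slide 2 right of the dashed line, and bars for the mean of 2 arrays. Saline 3 and saline 4 stand apart in every panel, as for Cxcl10 at −4.78 and −5.09, and saline 1 and saline 2 lie near the LPS arrays.

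Over all 8 arrays, LPS against saline called 7 of 18691 genes (0.0375%), 4 higher and 3 lower after LPS, with 1248 genes at an unadjusted p under 0.05. None of the 7 was called when all 16 arrays shared the fit, and 1 gene was called with the replicate number as a block. None of the 7 is a member of the lists of interferon-stimulated, GTPase, cytokine or acute-phase genes described below. With 0.0375% of all genes called, a count of 0 in these lists is near the background. What the 7 share is that their groups did not overlap and that both slides gave a like change. Both traits follow in part from the call, which used these same 8 arrays. Over all genes, 919 (4.92%) had groups that did not overlap.

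Ccl21a, a chemokine that guides lymphocytes and dendritic cells to lymph nodes, fell most (chromosome 4, 42231835 to 42231894, mm9). Its level was −0.09, −0.45, 0.31 and −0.09 on saline 1 to saline 4 and −6.96, −5.81, −5.14 and −5.15 on LPS 1 to LPS 4. All 4 LPS arrays lay far below all 4 saline arrays. The fitted change was −5.68 ± 0.39 (adjusted p = 0.00206), with the probe well above background on 1 of the 4 LPS arrays. On slide 1, where it was not well above background on either LPS array, it was at least 34.1-fold lower after LPS, and on slide 2 the fitted change was −5.59. Here and below, "at least" sets the mean of the bright arrays against the lowest signal counted as above background on each dim array, or against the probe's own signal where that is higher. On the knockout arrays the level ranged from −4.09 to 0.73 after saline and from −3 to 0.67 after LPS, so it varied widely within both treatments there.

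The other 2 genes that fell lie beside it on chromosome 4. ENSMUST00000107981, at 42213341 to 42213400, fell by 2.17 ± 0.14 (log2, adjusted p = 0.00189). Its level was −1.59 to −1.23 over the saline arrays and −3.76 to −3.46 over the LPS arrays. 4933409K07Rik, at 41962983 to 41963042, fell by 2.03 (adjusted p = 0.00641), from 1.69 to 1.91 over the saline arrays to −0.63 to 0.03 over the LPS arrays. The 3 genes span 268.9 kb. Within 500 kb of Ccl21a the array holds 7 probes, of which 6 passed the filter, and 4 of these 6 had groups that did not overlap: those of these 3 genes and of AW049276, which showed −0.89 with its probe well above background on 1 of the 4 LPS arrays. The groups of Ccl19, a chemokine of the same receptor, overlapped: one of its probes ranged from −0.41 to 2.10 over the saline arrays and from 0.37 to 1.92 over the LPS arrays. The genes of this stretch are known to have near-identical copies, so these probes may not separate them.

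The 4 genes that rose were Duox2, Terc, 4930535E02Rik and 2900027M19Rik. Duox2 encodes an oxidase that makes hydrogen peroxide (chromosome 2, 122108679 to 122108738). Its level was −3.39, −3.17, −2.97 and −2.88 on saline 1 to saline 4 and −0.45, −1.02, −1.23 and −0.87 on LPS 1 to LPS 4, a rise of 2.21 (adjusted p = 0.00720). Terc, the RNA template of telomerase, rose by 1.59 (adjusted p = 0.0207). 4930535E02Rik rose by 2.22 (adjusted p = 0.00716) and 2900027M19Rik by 1.47 (adjusted p = 0.0102). For 2900027M19Rik the other probe showed 0.20 over 8 arrays, against 1.47 for the brighter one. Levels of these genes on the knockout arrays did not follow treatment: Duox2 was at 0.35 on knockout saline 1, between −4.98 and −4.55 on the other knockout saline arrays, and between −5.08 and −3.97 after LPS.

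**Figure D2:**
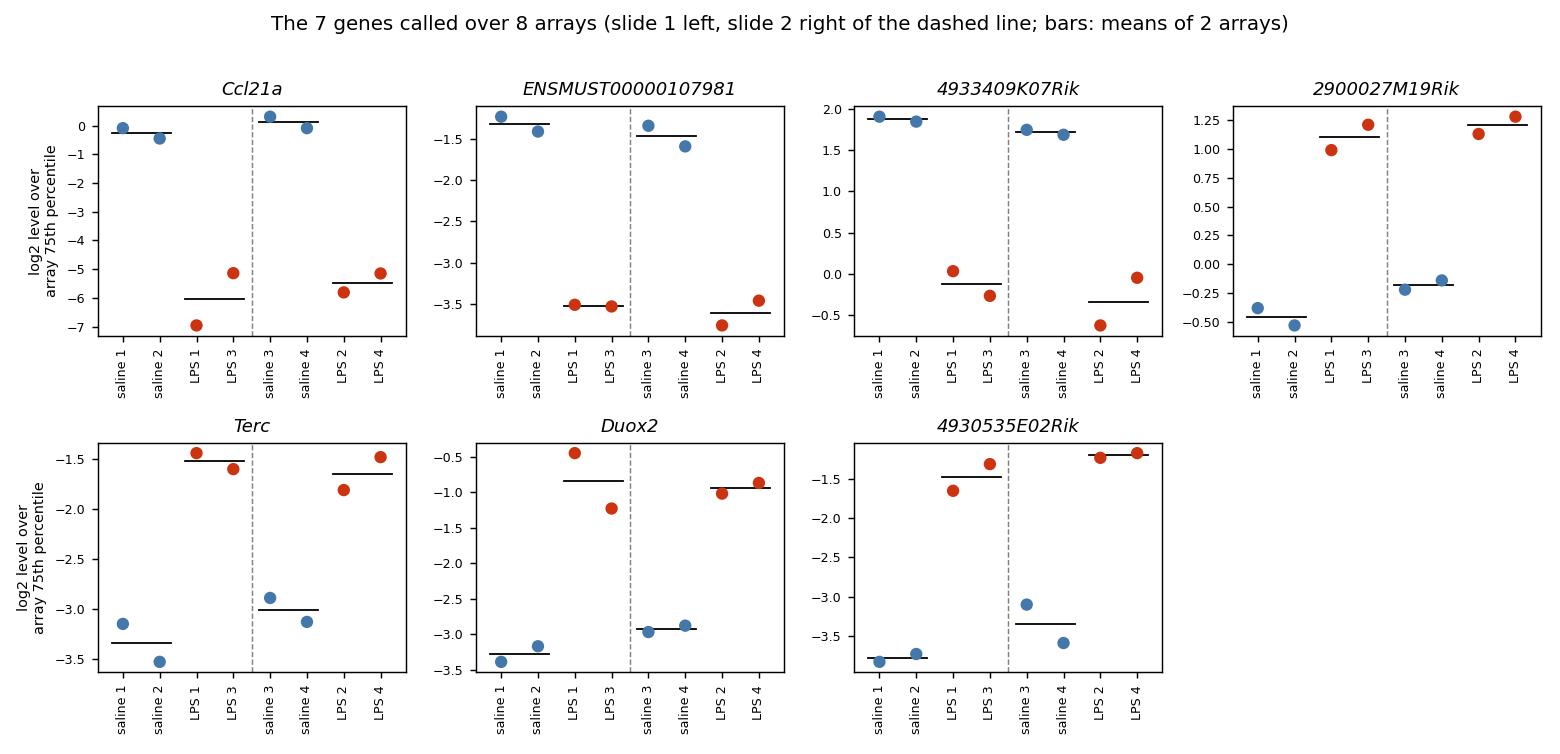
Level of the 7 genes called over 8 arrays on each wild-type array (y axis, log2 over the 75th percentile of the array; saline blue, LPS red, slide 1 left and slide 2 right of the dashed line, bars for the mean of 2 arrays). Saline and LPS do not overlap on either slide, as for Ccl21a with −0.45 to 0.31 against −6.96 to −5.14, which follows in part from the call.

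Among the symbol-bearing genes next in order of p, none was called over 8 arrays. Dnajb8, a chaperone of the DnaJ family, showed 2.16 (adjusted p = 0.162), and Creb3l3, a membrane-bound transcription factor of the acute-phase response in liver, showed 2.13 (adjusted p = 0.203). Eml6, a microtubule-associated protein, showed 0.87 (adjusted p = 0.154), and its other probe showed 0.02. Cpb2, Syt6 and Tuba8 came next. Further down this order, Npy, the neuropeptide of amygdala interneurons, showed −0.84 (adjusted p = 0.244). It was at 1.11 to 1.56 on the saline arrays and at 0.45 to 0.53 on the LPS arrays. Its groups did not overlap, as for 4.92% of all genes, but it was not called.

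On slide 2, with saline 3 and saline 4 against LPS 2 and LPS 4, 286 genes were called (1.53%), 208 of them higher and 78 lower after LPS. These calls rest on 2 arrays against 2, and the count was 6 without saline 3, 14 without saline 4, 173 without LPS 2, 159 without LPS 4 and 130 without saline 1 or without saline 2. Of the 208 genes that rose, 208 were lower on saline 3 and saline 4 than on all 4 LPS arrays, and 199 were also lower there than on saline 1 and saline 2. The median change of the 208 genes was 2.37 on slide 2 and −0.21 on slide 1. Of the 78 genes that fell, 77 were higher on saline 3 and saline 4 than on all 4 LPS arrays, with a median change of −1.50 on slide 2 and 0.06 on slide 1. For both sets the call itself compared saline 3 and saline 4 with LPS 2 and LPS 4. That part of the separation therefore follows from the choice of genes. Over all genes, 52.47% had groups that did not overlap on slide 2. Of the 286 genes, 12 were called on slide 1 too, in either direction, 5 among the slide 2 rises and 7 among the slide 2 falls. These falls include Slc16a4 and Defb11, which were at least 3.37-fold and 4.8-fold higher after LPS on slide 1. The 12 are therefore not all like changes on both slides.

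On slide 1, with saline 1 and saline 2 against LPS 1 and LPS 3, 44 genes were called (0.235%), 27 higher and 17 lower after LPS. The count was 0 without saline 3 or without saline 4 (1183 genes at an unadjusted p under 0.05 in both), 23 without saline 2, 311 without LPS 1 and 69 without LPS 3. No member of the lists of interferon-stimulated, GTPase, cytokine, acute-phase or NF-kB genes was among them. The LPS response differed between the slides for 117 genes (0.626%) by the interaction of treatment and slide, 89 with the more positive change on slide 2 and 28 with the more positive change on slide 1. That count was 7 without saline 1, 8 without saline 2, 0 without saline 3 (1260 genes at an unadjusted p under 0.05), 8 without saline 4, 53 without LPS 2, 59 without LPS 4, 315 without LPS 1 and 382 without LPS 3. Without saline 1 and saline 2, an alternative chosen after the values were seen, the comparison of the remaining saline arrays with 4 LPS arrays called 345 genes, 239 higher and 106 lower, and held all 7 genes named above. All its arrays were also used to call the 7.

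**Figure D3:**
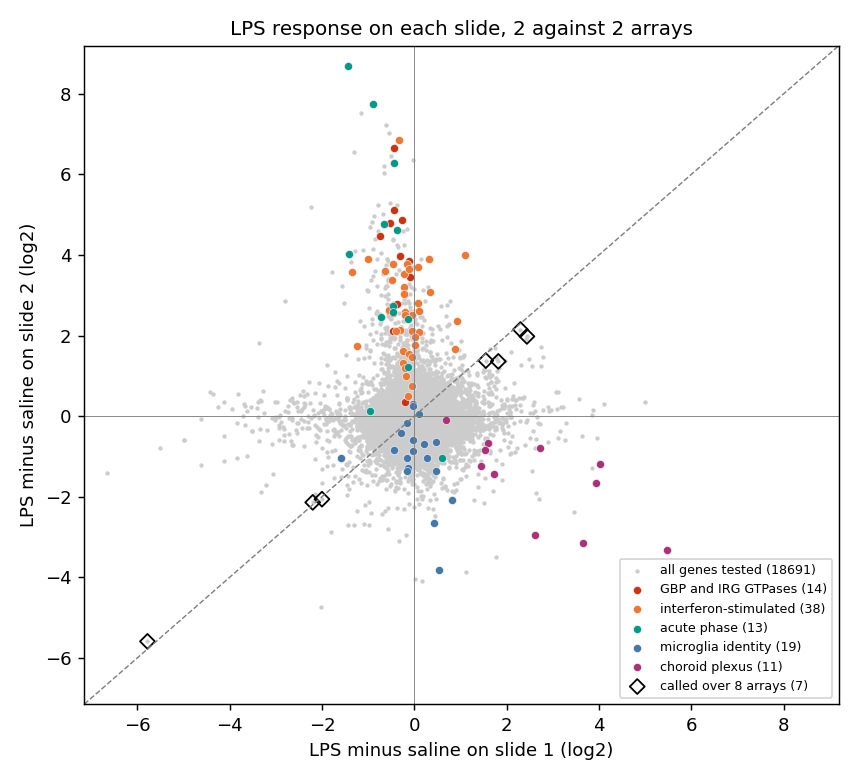
LPS minus saline on slide 1 (x axis, log2) against the same on slide 2 (y axis, log2) for 18691 genes in grey, with members of 5 gene lists in colour, the 7 genes called over 8 arrays as open diamonds and the diagonal dashed. List members of the inflammatory response spread upward along the y axis with x mostly at or below 0, as for Cxcl10 at 7.23 on slide 2 and −0.61 on slide 1, while the 7 diamonds lie near the diagonal. Where a probe was not well above background in a group, the plotted value is the fitted difference and not a measured fold.

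Of the lists described here, interferon-stimulated genes had the most members called on slide 2. Of 38 members tested, 19 were called higher and 0 lower (1.11% of all genes were called higher), and the median of the list was 2.55 (2.43 with dim probes at their bound), against −0.09 over all genes. On slide 1 the median was −0.17 and 0 members were called, and over 8 arrays the median was 1.20, all 38 changes were above 0, and 0 members were called. Between the saline arrays, 21 of the 38 were called higher on slide 1 than on slide 2, against 2.11% of all genes. Without saline 1 and saline 2, 21 were called higher, against 1.28% of all genes. A probe that was dim on saline 3 and saline 4 was tested only if 3 or 4 LPS arrays were well above background. Zbp1, Gbp6, Cxcl9, Saa3 and Lcn2, for example, entered in this way. The counts and medians of this list and of the other inflammatory lists below therefore favour members that are high after LPS.

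Zbp1, a sensor of Z-form nucleic acid that can trigger cell death, was among those called. Its level was 0.12 and 0.03 on saline 1 and saline 2, −5.84 and −6.60 on saline 3 and saline 4, and −0.77, 0.93, 0.26 and 0.35 on LPS 1 to LPS 4. On slide 2 it was at least 85.5-fold higher after LPS, since its probe was not well above background on saline 3 and saline 4 (adjusted p = 0.00234). The slide 1 change was −0.33, and the slides differed (adjusted p = 0.0107).

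Rsad2, an enzyme that blocks virus replication, showed the same order: −0.09 and 0.00 on saline 1 and saline 2, −4.36 and −4.30 on saline 3 and saline 4, and −1.63 to −0.18 on the LPS arrays. It rose by 3.89 ± 0.37 on slide 2 (adjusted p = 0.00685) and its other 2 probes showed 4.62 and 4.59. Isg15, a ubiquitin-like modifier, was at 0.66, 1.04, −2.78 and −2.65 on saline 1 to saline 4 and at 0.46, 1.56, 1.42 and 0.42 on LPS 1 to LPS 4. It rose by 3.71 ± 0.44 on slide 2 (adjusted p = 0.0138), against 0.09 on slide 1. Mx1, a GTPase that traps viral capsids, was at least 3.26-fold higher on slide 2 (adjusted p = 0.00390). Irf7, Usp18, Oasl1, Oas2 and Ifit3, which respectively amplify the interferon signal, damp it, make or resemble the 2-5A synthetases and bind viral RNA, rose by 3.77, 3.61, 3.77, 3.66 and 3.52. Members that did not pass the test include Irf1 at 1.62 and Ifit1, whose LPS arrays spread from −2.03 to 1.60.

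The guanylate-binding proteins and immunity-related GTPases, which coat vacuoles that hold microbes, had the highest median of the lists shown, 3.66 on slide 2 for 14 members tested, of which 9 were called higher and 0 lower. The count was 10 higher without saline 1 and saline 2. Over all genes, 1.11% were called higher on slide 2 and 1.28% without these 2 arrays. On slide 1 the median was −0.44 and all 14 changes were below 0. Gbp2 (chromosome 3, 142300719 to 142300778) was at 3.32 and 3.24 on saline 1 and saline 2, −2.09 and −2.42 on saline 3 and saline 4, and 2.33, 3.58, 3.36 and 2.12 on LPS 1 to LPS 4. Its slide 2 change was 5.11 ± 0.51 (adjusted p = 0.00752), its slide 1 change −0.43, and the slides differed (adjusted p = 0.0320). Gbp6 was at least 37.8-fold higher on slide 2 (adjusted p = 0.00752). Tgtp1, Gbp4 and Iigp1 rose by 4.86, 4.80 and 4.48, and the other probe of Tgtp1 showed 2.45. Gbp and Irg genes have close paralogs, so a probe may read more than 1 of them.

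The bases upstream of the start sites of these genes were searched for the core of the interferon-stimulated response element (GAAA, any 2 bases, GAAA) on both strands. The RefSeq promoter table (GRCm38.p6) held 250 upstream bases for 11336 of the genes tested, and 3.16% of these windows held a match. A match was found for 8 of the 9 GTPase genes with a window (88.9%), for 9 of 29 interferon-stimulated genes (31.0%) and for 22 of the 127 genes called higher on slide 2 with a window (17.3%). Shares were lower for cytokines and chemokines (2 of 14, 14.3%), acute-phase genes (1 of 11, 9.09%) and NF-kB targets (1 of 18, 5.56%). It was found for 0 of the 45 genes called lower. Overlapping matches count once per gene. The kB core (GGGA, any base, TTTCC; both strands) was found in 0.476% of windows of the genes tested and in 0.787% of those called higher. By list it was found for 3 of 14 cytokines and chemokines (21.4%), 2 of 18 NF-kB targets (11.1%), 1 of 9 GTPases (11.1%), 0 of 11 acute-phase genes and 0 of 29 interferon-stimulated ones. A match is a string of letters and not evidence of binding.

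The windows below are shown because they hold the match in list members called higher on slide 2. They were chosen after the values were seen, and Rsad2, Bst2, Trim30a and Saa3, also called, hold a match too. Gbp5, Gbp7, Irgm1, Irgm2, Ifit1, Oas1a, Oas3, Stat2 and Ccl19 hold a match as well and were not called on slide 2. Capitals mark a single match in each window, and each window runs 5′ to 3′ on the strand of the gene (GRCm38.p6). The windows of Isg15 and Gbp3 hold further matches that overlap the marked one and are not in capitals.
Gbp2, chr3:142620589-142620628, plus strand: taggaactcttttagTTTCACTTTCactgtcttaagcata
Gbp3, chr3:142559984-142560023, plus strand: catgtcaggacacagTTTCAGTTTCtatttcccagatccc
Tgtp1, chr11:48992299-48992338, minus strand: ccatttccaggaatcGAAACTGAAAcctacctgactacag
Igtp, chr11:58199507-58199546, plus strand: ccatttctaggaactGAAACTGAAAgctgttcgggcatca
Isg15, chr4:156200866-156200905, minus strand: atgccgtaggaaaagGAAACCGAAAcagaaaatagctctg
Ifit3, chr19:34583358-34583397, plus strand: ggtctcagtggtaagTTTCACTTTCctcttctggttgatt
Cxcl10, chr5:92349078-92349117, minus strand: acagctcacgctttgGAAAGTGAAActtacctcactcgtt

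In these 7 windows the match ended 24 to 203 bases before the start site. The windows of Igtp and Tgtp1 carry the match GAAACTGAAA in the orientation of the gene, and those of Gbp2 and Gbp3 carry a match on the opposite strand. Igtp rose by 2.74 and Gbp3 by 3.46 on slide 2.

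Of 29 cytokines and chemokines on the array, 22 passed the filter, and Cxcl9, for example, passed only through the LPS group. Of these 22, 6 were called higher and 0 lower on slide 2, where 1.11% of all genes were called higher. Their median there was 1.77. On slide 1, 0 were called, against 0.235% of all genes, the median was −0.61 and 0 of the 22 changes were above 0. With saline 1 and saline 2 left out, 6 were called higher. Cxcl10 rose by 7.23 ± 1.05 on slide 2 (adjusted p = 0.0271), and the difference between the slides, 7.84, was not called (adjusted p = 0.0938). Cxcl9, a ligand of the same receptor as Cxcl10, was at −0.78 and −0.46 on saline 1 and saline 2, −6.83 and −7.83 on saline 3 and saline 4, and −1.63 to −0.30 on the LPS arrays. It was at least 44.4-fold higher on slide 2 (adjusted p = 0.00211). Ccl5, a T cell and monocyte attractant, rose by 6.47 (adjusted p = 0.0112), and its other probe showed 6.55.

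For some members, picked after their values were seen, the LPS arrays split into pairs. Ccl2, the main monocyte attractant, was at 0.41 and −0.10 on LPS 1 and LPS 4 and at 3.59 and 3.92 on LPS 2 and LPS 3, against 2.77, 2.89, −4.26 and −4.32 on saline 1 to saline 4. All LPS arrays lay above saline 3 and saline 4, but the change of 6.04 ± 1.39 on slide 2 was not called (adjusted p = 0.112). Cxcl1, a neutrophil attractant, split in the same way, with −2.69 and −1.48 on LPS 1 and LPS 4 and 1.37 and 1.36 on LPS 2 and LPS 3. Its probe was not well above background on saline 3 and saline 4, so that it was at least 52.7-fold higher on slide 2, where it was not called (adjusted p = 0.0551). It was called without saline 1 and saline 2 (adjusted p = 0.0439). Il6, a fever-inducing cytokine, was at −6.14 and −4.23 on LPS 1 and LPS 4 and at −1.37 and −1.92 on LPS 2 and LPS 3. Its saline levels were −0.89, −1.59, −5.46 and −5.84. Its probe was not well above background on saline 3, on saline 4 and on 1 of the 2 LPS arrays of slide 1, so these low levels have no order. Cxcl9 did not split in this way, with −1.63 on LPS 1 and −0.30, −0.72 and −0.31 on LPS 2 to LPS 4. Il1b showed 1.85 on slide 2 (adjusted p = 0.379). Tnf was not tested, because its probe was not well above background on enough arrays. LPS 1 and LPS 4 lie on different slides.

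Of 18 acute-phase genes, 13 passed the filter, and Saa3 and Lcn2, for example, passed only through the LPS group. Of these 13, 6 were called higher and 0 lower on slide 2, where 1.11% of all genes were called higher. Their median was 2.74 on slide 2 and −0.46 on slide 1. The count was 5 higher without saline 1 and saline 2. Saa3, a serum amyloid made outside the liver (chromosome 7, 53968031 to 53968090), was at 1.06 and 1.08 on saline 1 and saline 2, −8.04 and −7.95 on saline 3 and saline 4, and −1.46, 1.56, 0.72 and −0.17 on LPS 1 to LPS 4. It was at least 88.6-fold higher on slide 2 (adjusted p = 0.00630), and the slides differed (adjusted p = 0.0237). Lcn2, a siderophore-binding protein of reactive astrocytes and vessels (chromosome 2, 32241037 to 32241281), was at 1.11, 0.80, −7.83 and −7.28 on saline 1 to saline 4 and at −0.51 to 0.90 on the LPS arrays. It was at least 62.7-fold higher on slide 2 (adjusted p = 0.00292). Saa2, Hp (haptoglobin) and Steap4, a metalloreductase, were also called, with Hp at 4.61 and Saa2 at 4.76.

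Of 18 genes that sense LPS or pass its signal on, 0 were called on either slide or over 8 arrays by limma. Since 1.53% of all genes were called on slide 2 and 0.235% on slide 1, a count of 0 in a list of this size is near the background. The median was 0.21 on slide 2, and 2 members were called higher on saline slide 1 than on saline slide 2. With saline 1 and saline 2 left out, 1 of the 18 was called higher, against 1.28% of all genes. Cd14 was at 1.83, 1.77, −1.30 and −1.15 on saline 1 to saline 4 and at 0.29 to 1.70 on the LPS arrays, with 2.54 ± 0.46 on slide 2 (adjusted p = 0.0559). Without saline 1 and saline 2 it was called (adjusted p = 0.0499). Tlr4 showed 0.90 on slide 2 (adjusted p = 0.250). Of 25 NF-kB targets, 2 were called higher on slide 2: Bcl3, an atypical inhibitor of the IkB family, at 3.91, and Icam1, the leukocyte adhesion molecule, at 2.82. That count was also 2 without saline 1 and saline 2. The median of this list was 0.93 on slide 2 and −0.44 on slide 1. Nfkbia, the inhibitor that NF-kB itself induces, showed 1.34 (adjusted p = 0.133).

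**Figure D4:**
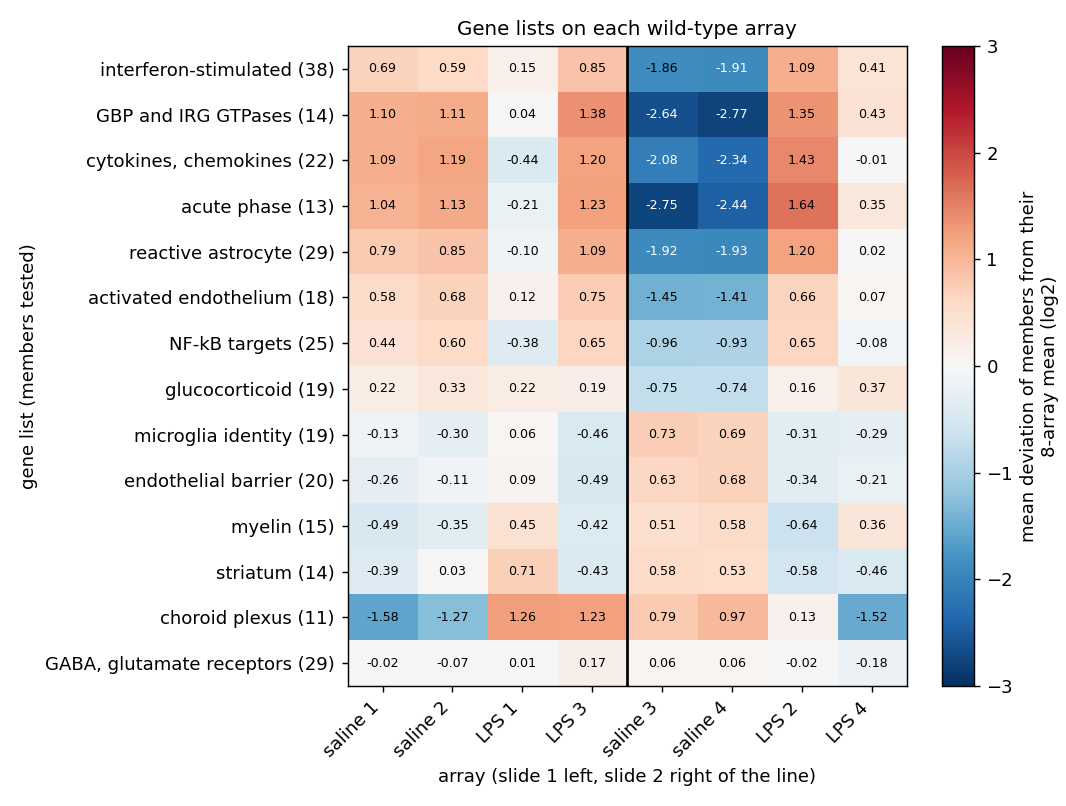
Mean deviation of the members of 14 gene lists from their own 8-array mean (colour and printed value, log2) on each wild-type array (x axis, slide 1 left and slide 2 right of the line), with the members tested in brackets. Saline 3 and saline 4 are lowest for the inflammatory lists, at −2.64 and −2.77 for the GTPases, and choroid plexus genes follow neither slide nor treatment.

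Genes of reactive glia and vessels moved with the inflammatory genes. Of 29 reactive astrocyte genes, 12 were called higher and 1 lower on slide 2 (median 2.03), and the median was −0.43 on slide 1. These counts were the same, 12 and 1, without saline 1 and saline 2. Over all genes, 1.11% were called higher and 0.417% lower on slide 2. Lcn2, Cxcl10, Gbp2, Iigp1 and Steap4 are members of this list and of others above, so these counts overlap. Gfap, the filament protein of astrocytes, showed 0.69 (adjusted p = 0.498). Slc10a6, a steroid sulfate transporter, was at least 15.5-fold higher (adjusted p = 0.0177). Of 18 genes of activated endothelium, 5 were called higher, among them Ch25h, which makes an antiviral oxysterol. With saline 1 and saline 2 left out, 6 were called higher. Ch25h was at 1.72 and 1.84 on saline 1 and saline 2, −2.33 and −2.26 on saline 3 and saline 4, and 0.90 to 1.82 on the LPS arrays, and rose by 3.90 ± 0.25 on slide 2 (adjusted p = 0.00292).

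In the complement list, 4 of 16 members were called higher on slide 2, against 1.11% of all genes. They were Cfb, factor B of the alternative pathway, at 5.23 ± 0.64 (adjusted p = 0.0151), C5ar1, C4b and C2. Against saline 3 and saline 4 alone, all 4 LPS arrays gave 3 called higher. C3, the central component, showed 2.20 (adjusted p = 0.218). In the list of class I antigen presentation, 2 of 12 were called higher, H2-D1 at 1.46 and Psmb8 at 2.52. Of 7 class II genes 0 were called on either slide or over 8 arrays by limma, with a median of −0.42 on slide 2. Since 1.53% of all genes were called on slide 2 and 0.235% on slide 1, a count of 0 in a list this small is near the background.

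Of 19 glucocorticoid-responsive genes, 4 were called higher and 0 lower on slide 2, where 1.11% of all genes were called higher. On slide 2, 18 of the 19 changes were above 0. The median was 0.85 there and −0.10 on slide 1. With saline 1 and saline 2 left out, 6 were called higher. Fkbp5, which restrains the glucocorticoid receptor, was at 1.84, 2.33, −0.40 and −0.16 on saline 1 to saline 4 and at 2.00, 1.76, 1.88 and 1.75 on LPS 1 to LPS 4. The 4 LPS arrays lay close together here. It rose by 2.03 ± 0.21 (adjusted p = 0.00752), its other 2 probes showed 2.23 and 2.39, and the slides differed (adjusted p = 0.0347). Plin4, a lipid droplet protein, Angptl4, a lipase inhibitor, and Cdkn1a, a cell cycle inhibitor, rose by 3.04, 2.40 and 1.71.

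Falls on slide 2 included genes of microglia and of the blood vessel wall, and 0.417% of all genes were called lower there. Of 19 microglial identity genes, 3 were called lower and 0 higher on slide 2 (median −0.87), and 0 were called on slide 1 (median −0.02). Against saline 3 and saline 4 alone, all 4 LPS arrays gave 4 called lower, compared with 0.567% of all genes. P2ry12, the ADP receptor of resting microglia (chromosome 3, 59020598 to 59020657), was at −3.37 and −3.61 on saline 1 and saline 2, −0.62 and −0.80 on saline 3 and saline 4, and −3.46 to −2.76 on the LPS arrays. It fell by 2.64 ± 0.24 on slide 2 (adjusted p = 0.00638), and the slides differed (adjusted p = 0.0246). Gpr34, a lysophospholipid receptor, and Olfml3, a secreted matrix protein, were the others called, with −3.81 and −1.29. Cx3cr1, the fractalkine receptor, showed −1.37 (adjusted p = 0.0642), and Tmem119 showed −0.63. In bulk tissue, fewer cells of a type and less RNA per cell cannot be told apart. The lists of myelin and striatal genes also had negative medians on slide 2, −0.69 and −1.03, with 0 called.

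Of 20 genes of the endothelial barrier, 5 were called lower and 0 higher on slide 2 (median −0.67, against −0.01 on slide 1). Against saline 3 and saline 4 alone, all 4 LPS arrays gave 4 called lower. Tek, the angiopoietin receptor, was at −4.45, −4.43, −2.18 and −2.03 on saline 1 to saline 4 and at −4.62 to −4.08 on the LPS arrays. It fell by 2.27 ± 0.21 (adjusted p = 0.00638), and its other probe showed −1.77. Abcb1a, the drug efflux pump, Kdr, a VEGF receptor, Slco1c1, a thyroxine transporter, and Cldn5, the tight junction protein, showed −2.06, −1.87, −1.34 and −1.30. Slco1a4 and Slc38a5, also transporters of this barrier, were at −5.93 and −5.78 on LPS 3 alone, and neither was called. Outside these lists, Slc40a1, the iron exporter, fell by 2.96 on slide 2 (adjusted p = 0.00748).

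For other genes that were lower after LPS on slide 2 the slides or the arrays went apart. Slc16a4, a transporter of the monocarboxylate family, was at −6.14, −5.70, −1.81 and −2.01 on saline 1 to saline 4 and at −4.02, −5.26, −4.25 and −5.55 on LPS 1 to LPS 4. It fell by 3.5 ± 0.22 on slide 2 (adjusted p = 0.00292), with 1 of the 2 LPS arrays well above background, and was at least 3.37-fold higher after LPS on slide 1 (adjusted p = 0.0474). The slides differed (adjusted p = 0.004). Dsp, a desmosome protein, fell by 3.87 on slide 2 (adjusted p = 0.0112), again with 1 of the 2 LPS arrays well above background, and the slides differed (adjusted p = 0.0269). Without saline 1 and saline 2, Dsp showed −2.95 and was not called (adjusted p = 0.117). Prl, prolactin, was at −2.78, −2.78, −4.36 and −4.03 on saline 1 to saline 4 and at −1.70, −8.60, −3.81 and −7.86 on LPS 1 to LPS 4. On slide 2 it was at least 3.39-fold lower (adjusted p = 0.0350), but LPS 1 and LPS 3 lay above saline 3 and saline 4, and without saline 1 and saline 2 it was not called (−1.30, adjusted p = 0.741).

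Of the 44 genes called on slide 1, 12 were also called on slide 2, in either direction. Ccl21a and Duox2 changed in the same direction on both slides, and Slc16a4 and Defb11 in opposite directions. Of the 44, 26 had saline 1 and saline 2 both below the other 6 arrays, and 12 had LPS 1 and LPS 3 both below the other 6. Part of each pattern follows from the call, which compared saline 1 and saline 2 with LPS 1 and LPS 3. Vapb, a tether of the endoplasmic reticulum, was at 1.29 and 1.36 on saline 1 and saline 2 and at 4.41 to 5.09 on the other 6 arrays, with 3.15 on slide 1 (adjusted p = 0.0118). Its other 2 probes showed 0.25 and 0.09. Rab5c, an endosomal GTPase, and U2af1, a splicing factor, showed 2.65 and 2.58, and the other probe of U2af1 showed 3.34. Serp2, a membrane protein of the secretory pathway, was at 3.06 and 3.09 on LPS 1 and LPS 3 and at 4.51 to 6.19 on the others, with −2.93 (adjusted p = 0.0118). Slc17a7, the vesicular glutamate transporter of cortical and basolateral neurons, was at 2.67, 2.64, 1.86 and 1.54 on saline 1 to saline 4 and at 0.01, 1.23, 0.22 and 1.33 on LPS 1 to LPS 4. It fell by 2.54 on slide 1 (adjusted p = 0.0118) and showed −0.42 on slide 2. By its brighter probe, which was not well above background on the dim side, Mb21d2 was at least 17.2-fold higher and Dusp16 at least 12.4-fold lower after LPS on slide 1, and Nin showed −3.37. The other probe of these genes showed −0.17, −0.11 and 0.02.

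Markers of the labelled tissue were present, and markers of neighbouring tissue differed between arrays. Of 18 amygdala genes, 17 were tested and 1 was called, Slc17a7, lower on slide 1, with a median of −0.21 on slide 2, and their mean deviation lay between −0.31 and 0.12 on the 8 arrays. Choroid plexus genes deviated by −1.58 and −1.27 on saline 1 and saline 2, 0.79 and 0.97 on saline 3 and saline 4, and 1.26, 0.13, 1.23 and −1.52 on LPS 1 to LPS 4. Ttr, the transport protein that defines this tissue, was at −5.53, −5.59, −0.51 and −0.26 on saline 1 to saline 4 and at −0.17, −1.04, −0.02 and −6.34 on LPS 1 to LPS 4. On slide 1 all 11 choroid plexus genes were higher after LPS (median 2.61), Enpp2 was called at 1.53, and on slide 2 all 11 were lower (median −1.23) with 0 called. Myelin genes deviated by −0.49 and −0.35 on saline 1 and saline 2, 0.51 and 0.58 on saline 3 and saline 4, and −0.64 to 0.45 on the LPS arrays. Striatal genes deviated by −0.39, 0.03, 0.58 and 0.53 on saline 1 to saline 4 and by −0.58 to 0.71 on the LPS arrays. On slide 2, 0 of 15 myelin and 0 of 14 striatal changes were above 0 (medians −0.69 and −1.03), with 0 called. On slide 1, 14 and 9 were above 0 (medians 0.36 and 0.23). Their part in the results was not tested.

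Few blood cell markers passed the filter. Of 19 neutrophil and monocyte genes, 9 were tested and 0 were called on slide 1, slide 2 or over 8 arrays by limma; S100a9 showed 3.10 on slide 2 (adjusted p = 0.0660), and Camp, Elane, Ngp and Mmp8 were not well above background on enough arrays to be tested. Of 16 lymphocyte genes, 2 were tested. Erythrocyte genes had a median of −0.47 on slide 2 with 0 of 5 called. Counts of 0 in lists this small are near the background, since 1.53% of all genes were called on slide 2 and 0.235% on slide 1.

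The lists of GABA and glutamate receptors, immediate-early genes and neuropeptides held no called member. Since 0.235% of all genes were called on slide 1 and 1.53% on slide 2, a count of 0 in lists of this size is near the background. Of 18 regional genes of cortex and hippocampus, 1 was called lower on slide 2. Of 29 GABA and glutamate receptor genes, 0 were called on slide 1, slide 2 or over 8 arrays by limma, with medians of 0.07, −0.13 and −0.04. Their mean deviation lay between −0.18 and 0.17 on the 8 arrays. Of 19 immediate-early genes, 0 were called in the same 3 comparisons, with a median of −0.29 on slide 2, and of 17 neuropeptide genes of the amygdala 0 were called, with a median of −0.42. P2rx7, the gene deleted in the knockout mice, was at −0.15, 0.14, 0.78 and 0.90 on saline 1 to saline 4 and at 0.14, 0.28, 0.07 and 0.70 on LPS 1 to LPS 4, with −0.12 over 8 arrays (adjusted p = 0.934). Of 62 ribosomal protein genes and 55 genes of oxidative phosphorylation, 0 were called on either slide, with medians of −0.19 and −0.29 on slide 2.

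The authors' deposited table gives the fold change of group means over 4 arrays each, with the direction. In the authors' deposited table, 340 of 9479 probes were at least 2-fold higher and 304 at least 2-fold lower after LPS in wild type. The authors' deposited table gives Cxcl10 as 9.90-fold higher, Saa3 as 12.3-fold higher, Gbp2 as 5.05-fold higher, P2ry12 as 2.16-fold lower and Ccl21a as 51.4-fold lower. These means join both pairs of saline arrays.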

How the data were processed

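RNA was hybridised to 1-colour arrays of 41174 probes, and the submitters' processing notes name Agilent Feature Extraction 9.5 for the deposited spot intensity. Per the file headers, the deposited processed intensity was background-subtracted and detrended within the array, with no scaling between arrays. The deposited flags mark spots well above background and outliers. Outlier spots (6 to 79 per array) were set to missing. Of the authors' deposited group tables, only the linear fold change ratio for wild type was used, and 32 per-array columns were not used. How the authors scaled or filtered these tables is not given in the sources used here.

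Here log2 intensity was scaled to the 75th percentile of each array. A probe was kept where a group had 3 or 4 arrays with it well above background (27232 probes), each gene took its brightest probe, and 7 genes with no measured spot in a treatment and slide were dropped. limma 3.58.1 (R 4.3.3, data.table version 1.17.8, jsonlite version 2.0.0) fitted 2 group means over 8 arrays, and 4 means of treatment and slide for the slides and their difference. The fits were tested on simulated data. Names came from RefSeq accessions for 24991 probes and from the file for 16183. Coordinates are mm9 as the files give them, except for RefSeq promoters. The number of arrays limits the precision.

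Named genes were those called over 8 arrays, the 10 with the smallest p, the 10 largest rises and falls among called genes whose arrays did not overlap on each slide, up to 4 members per list, and a fixed set of inflammatory genes. Other list members named with their values were chosen after the values were seen. The members and lists were chosen with earlier results of these data known. Alternatives changed the background correction, scaling, filter, probe rule, fit and arrays.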

Additional observations from a re-analysis of the deposited data

Results flagged for a closer look

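The LPS response differed between the slides for 117 genes by the interaction of treatment and slide. Among the 224 groups of 4 arrays examined for an array far from the others by Dixon's criterion, 3 were marked, and chance marks about 1 in 20. Eml6 on saline 1 was at −1.22, against −1.52 to −1.47 on the other saline arrays. Gpr34 on LPS 1 was at −3.79, against −5.50 to −5.23 on the other LPS arrays. Striatal genes on LPS 1 deviated by 0.71 (log2), against −0.58 to −0.43 on the other LPS arrays. Pairs of arrays that stand apart together, such as saline 3 and saline 4, cannot be marked by this criterion.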

How the results depend on the processing

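Over 8 arrays the count of 7 genes was 6 with normexp and with no filter, 7 with quantile or median scaling, a trend or the median over probes, 8 with probes above background on every array, and 10 with slide as a block, which kept all 7. It was 2 with all 16 arrays in the fit, none of them among the 7, 345 without both saline arrays of slide 1, and 1 with the replicate number as a block. The replicate numbers do not pair the samples (correlations 0.02, 0.02, −0.27 and 0.27), so the block shares only a number. Leaving out each array in turn gave 5 to 9 over 8 arrays, 0 to 311 on slide 1, 6 to 425 on slide 2 and 0 to 382 for the difference between slides. With no filter on dim probes, where 28624 genes were tested, the counts were 6 on slide 1, 163 on slide 2 and 21 for the difference. With all 16 arrays in the fit they were 68 on slide 1, 354 on slide 2 and 255 for the difference. The difference gave 67 with normexp. Fitted alone, slide 1 gave 2 and slide 2 gave 273. The slide 2 count stayed between 208 and 319 under normexp, both scalings, the stricter filter, the trend and the median over probes. Direction turned for Haus2 on slide 1, whose probe was not well above background on LPS 1 and LPS 3, from a fitted −2.43 to 0.06 with normexp. It turned for Mb21d2 on slide 1, whose probe was not well above background on saline 1 and saline 2, from a fitted 4.11 to −0.17 with probes above background on every array, where another probe stands for the gene. The cause of the other changes was not tested.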
